A study of Mus musculus with 17 samples.

Results

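The 9 genes described here encode the pore-forming subunits of the AMPA receptors (Gria1, Gria2, Gria3 and Gria4) and of the kainate receptors (Grik1, Grik2, Grik3, Grik4 and Grik5). They were listed by name and family, with earlier results of these data known, by a rule that uses no measured value, and each of the 9 symbols matched a single identifier among the 38355 Ensembl identifiers of the count files. Gene expression was measured by polyA RNA sequencing of hand-dissected hippocampus from untreated C57BL/6J wild type mice in 17 libraries. Single-end (SE) libraries came from 5 mice aged 3 months (3M) and 6 libraries aged 24 months (24M), and paired-end (PE) libraries from 3 mice aged 3 months and 3 mice aged 29 months (29M). Each aged group was set against young samples of the same library type, so the older age and the PE library type vary together and the effects at 24M and 29M differ in both. The tissue was whole hippocampus, and in such bulk RNA fewer cells of a type and less RNA per cell cannot be told apart.

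AMPA receptors are tetramers of GluA1 to GluA4 (the products of Gria1 to Gria4) and carry most of the fast excitatory current at hippocampal synapses, with GluA1 and GluA2 the main subunits in pyramidal neurons. Kainate receptors are tetramers of GluK1 to GluK5 (Grik1 to Grik5), in which GluK1, GluK2 and GluK3 can form channels by themselves while GluK4 and GluK5 need a partner of that group. They act on both sides of the synapse and are best known at the mossy fibre synapse between dentate granule cells and CA3 pyramidal cells. GluA2 makes AMPA receptors nearly impermeable to calcium, because the codon of a glutamine in its pore loop is edited in the RNA and read as arginine, a change that the enzyme ADAR2 (encoded by Adarb1) makes.

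The edited position, called the Q/R site, is the point at which these closely related sequences differ in function, and it is why the share of Gria2 within its family was singled out below. The reference sequence of the site is shown for the 4 AMPA subunits, for Grik1 and Grik2, whose site is known to be edited in part, and for Grik3, the member that passed the test at 24M. Each is written 5′ to 3′ on the coding strand with the glutamine codon in capitals and 12 bases on each side, from the GENCODE M21 transcripts of the GRCm38 build.
Gria1: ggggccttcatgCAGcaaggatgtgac
Gria2: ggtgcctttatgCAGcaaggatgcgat
Gria3: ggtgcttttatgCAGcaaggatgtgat
Gria4: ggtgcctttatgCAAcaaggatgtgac
Grik1: ggagctctcatgCAGcaaggatcggag
Grik2: ggagctctcatgCAGcaaggttctgag
Grik3: ggctccctgatgCAGcaaggatctgaa
The Gria2 codon lies at chr3:80706911-80706913 on the minus strand, in coding exon sequence (exon 11 of 16), and the Grik3 codon at chr4:125691207-125691209 on the plus strand (exon 12 of 16). Over these 27 bases Gria2 differed from Gria1 at 4 positions, from Gria3 at 2 and from Gria4 at 3, and Grik1 and Grik2 also differed at 2. The genome holds the unedited codon in every member, and the files count reads per gene, so editing itself was not measured here. Across the whole coding sequences the longest run shared by any of the 36 pairs of members was 56 bases (Gria2 and Gria3), and 3 pairs, all within the Gria family, shared a run of at least 50 bases, the length of a single-end read. A read that lies wholly in such a run matches both genes, which for the pair with the longest run leaves 7 start positions. The sole annotated genes that overlapped member exons were small RNAs, over 19 to 111 bases in Gria2, Gria3, Gria4 and Grik4.

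Libraries held 19144461 to 28438296 gene counts at 3M (SE), 9213474 to 19756411 at 24M, 10977976 to 15054972 at 3M (PE) and 10991389 to 13563541 at 29M. The least abundant member, Grik1, had 121 to 467 counts per sample, and Gria1 had 11133 to 41941. 24M replicates 1 and 4 differed by less than counting noise over low-count genes (0.406 of the noise, where the lowest of the other pairs had 1.23), so their rounded mean was counted as 1 sample, which left 5 samples at 24M and 16 in all. Abundant genes of the pair differed by more than counting noise (3.73 times the noise for genes with 2000 or more counts in both together, up to 9999), and the members differed between the 2 libraries by 2.7% (Gria1) to 12.8% (Gria2). All markers of hippocampal neurons and of the CA1, CA3 and dentate granule fields were detected in every group. In 3M SE replicate 4 the summed level of 6 striatal markers was 395 CPM (counts scaled to a common library total, with TMM factors), against 93.7 to 164 in the other 3M SE samples. Results at 24M are given without this library where they rest on it. Other sums varied within the 3M SE group as well. Choroid plexus markers summed to 2009 CPM (replicate 3) to 8312 CPM (replicate 5), against 4576 to 7696 CPM at 24M. Oligodendrocyte markers summed to 3123 to 5281 CPM, against 4477 to 5300 CPM at 24M. The part of this variation in the levels was not tested.

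Levels of different genes were compared per kb of annotated exon. At 3M (SE, n = 5) Gria1 had the highest level of the 9 members, 215.6 ± 20.2 (SD) CPM per kb. Grik5 (51.4 ± 4.1) and Gria2 (50.5 ± 4.2) followed with ranges that overlapped, then Gria3 (27.1 ± 1.6) and Gria4 (12.4 ± 0.7). The other kainate subunits were lower on this scale: Grik4 (9.58 ± 1.22) and Grik3 (9.34 ± 0.48) overlapped, while Grik2 (5.22 ± 0.28) and Grik1 (2.11 ± 0.25) stood apart from each other and from the rest. Gria1 was also the highest and Grik1 the lowest member in the 24M, 3M (PE) and 29M groups. Gria4 and Grik4, which did not overlap at 3M in either library type, overlapped at 24M (11.3 to 13.8 against 9.96 to 11.9 CPM per kb) and at 29M (10.1 to 10.8 against 10.2 to 11.4). Grik3 and Grik4, which overlapped at 3M in both library types, did not overlap at 24M (6.198 to 7.79 against 9.96 to 11.9 CPM per kb) or at 29M (7.97 to 9.16 against 10.2 to 11.4), with Grik3 the lower. The order depends on the length used, because the annotated exons of Gria2 cover 15548 bases and its coding exons only 2804, against 6043 and 2836 for Gria1. Per kb of coding exon Gria2 (279.9 ± 23.2 CPM per coding kb at 3M, SE) was second to Gria1 (459 ± 43.1), followed by Gria3 (96.0 ± 5.7) and Grik5 (86.2 ± 6.9). On that scale Grik3 lay above Grik4 without overlap at 3M (28.1 to 31.8 against 16.8 to 23.1 CPM per coding kb, SE) and at 29M (25.9 to 29.8 against 21.1 to 23.8) and overlapped it at 24M, and Gria4 and Grik4 did not overlap at 24M (25.01 to 30.5 against 20.7 to 24.8). The relation of Grik3 to Grik4 and the overlap of Gria4 and Grik4 at 24M therefore hold per kb of exon alone. At 3M Gria4 lay above Grik4 by coding length too (SE 26.01 to 29.06 against 16.8 to 23.1, PE 24.17 to 25.04 against 19.97 to 21.5). At 29M these genes overlapped on both scales (22.28 to 23.84 against 21.1 to 23.8 CPM per coding kb).

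**Figure D1:**
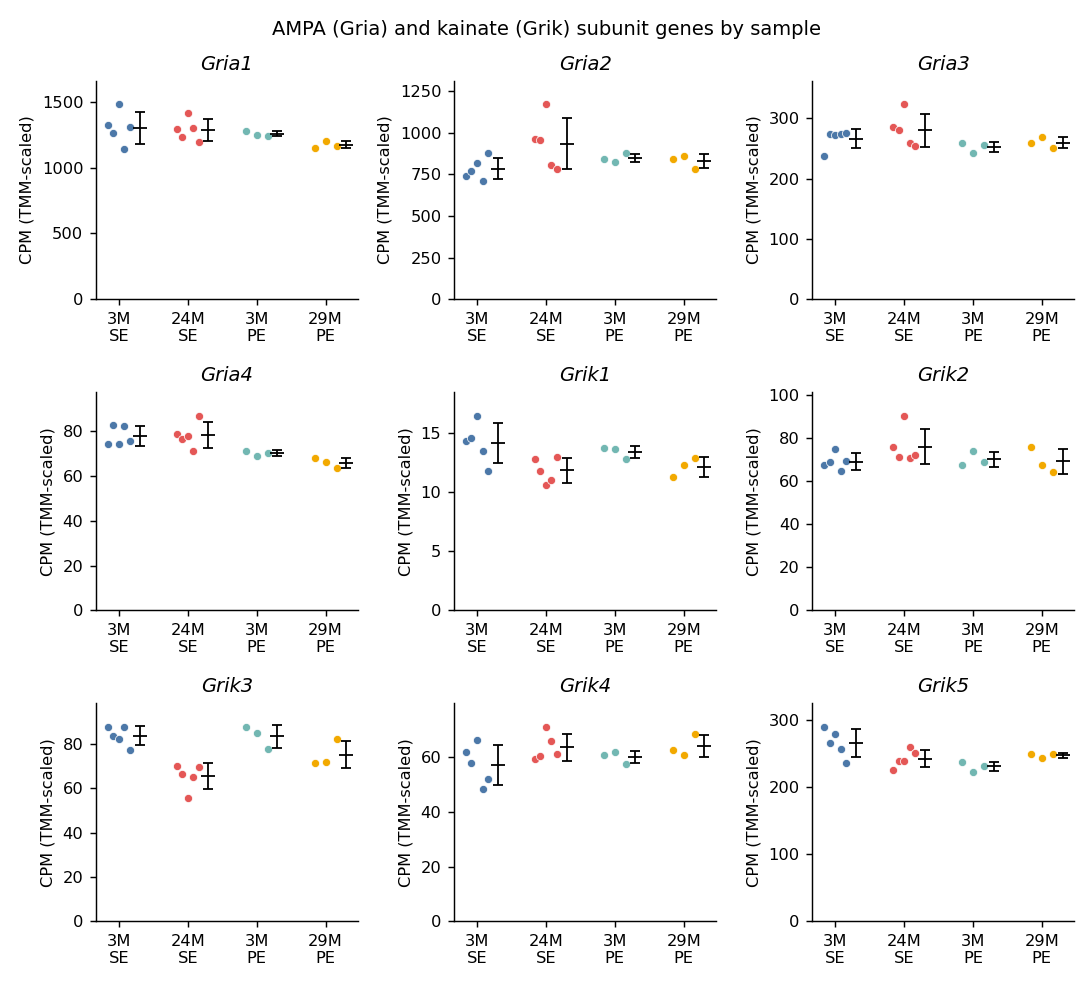
Level of each of the 9 subunit genes in CPM (vertical axes, from 0) for 3M and 24M single-end (SE, 5 and 5 samples) and 3M and 29M paired-end (PE, 3 and 3) samples. Points are samples and black bars the mean ± SD; Grik3 is the sole gene whose 24M points (55.6 to 69.9) all lie below its 3M SE points (77.4 to 87.8).

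The 4 AMPA subunit genes did not pass the test at either age. Calls needed an adjusted p no higher than 0.05 (edgeR's quasi-likelihood test, Benjamini-Hochberg over all genes tested) and a log2 fold change of 0.5 or more in either direction, thresholds at which 1.98% of 15683 genes were called at 24M and 1.45% of 15097 at 29M. None of the 9 members was called at 24M and none at 29M, by edgeR or by DESeq2. Without the fold threshold, which 5.58% of genes passed at 24M and 2.99% at 29M, 1 of 9 members passed at 24M (Grik3) and none at 29M. At an unadjusted p under 0.05, which 26.1% and 17.3% of all genes reached, there were 4 members at 24M and 3 at 29M. The median log2 fold change of the 9 members was 0.006 at 24M and -0.03 at 29M, beside -0.0032 and -0.0021 over all genes tested.

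Gria1, which encodes the subunit whose insertion into synapses is best known from long-term potentiation, was measured at 1142, 1262, 1306, 1323 and 1481 CPM at 3M (SE) and at 1197, 1231, 1297, 1299 and 1416 CPM at 24M. The groups overlapped almost completely (log2 fold change -0.02, SE 0.066, adjusted p = 0.91 by edgeR). In the PE libraries Gria1 was at 1240, 1252 and 1278 CPM at 3M and at 1153, 1164 and 1203 CPM at 29M, so that all 3 aged samples were below all young ones. That difference was small (log2 fold change -0.10, SE 0.040) and did not pass after adjustment (adjusted p = 0.23 by edgeR).

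Gria2, the gene of the edited subunit, was at 712, 743, 772, 820 and 877 CPM at 3M (SE) and at 780, 808, 954, 964 and 1171 CPM at 24M. Of the 24M samples 3 lay above every 3M sample and the other 2 within the 3M range (log2 fold change 0.25, SE 0.097, adjusted p = 0.12 by edgeR). The spread at 24M was wide (SD 155.6 CPM, against 65.1 at 3M), with replicate 3 at the top, and without that replicate the log2 fold change was 0.15. At 29M the Gria2 level was 783.5, 841 and 863 CPM against 824, 844 and 877 CPM at 3M (log2 fold change -0.03, SE 0.046, adjusted p = 0.77 by edgeR). Gria2 was thus not shown to differ at either age.

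Gria3, an X-linked gene, was at 238 to 275.5 CPM (median 273.8) at 3M (SE) and at 253.7 to 323 CPM (median 280.4) at 24M, a log2 difference of 0.07 (SE 0.066). Gria4, which is prominent in interneurons, was at 74.2 to 82.9 CPM (median 75.9) and 71.3 to 87.1 CPM (median 77.9), with a log2 fold change of 0.01 (SE 0.059). Both sets of groups overlapped. At 29M Gria3 differed by 0.04 (SE 0.039) on the log2 scale. Gria4 was at 63.5, 66.3 and 68.0 CPM at 29M and at 68.9, 70.5 and 71.4 CPM at 3M (PE), a log2 difference of -0.09 (SE 0.050, adjusted p = 0.37 by edgeR). The 29M samples of Gria1 and Gria4 were thus entirely below, and those of Grik5 entirely above, their 3M samples. With 3 samples against 3 such separation was common, with 10.5% of all genes entirely lower and 11.9% entirely higher at 29M.

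Among the kainate subunits Grik3 was lower at 24M and the other 4 genes did not pass the test. GluK3 is a low-affinity channel-forming subunit known at presynaptic sites. It was measured at 77.4, 82.4, 83.6, 87.7 and 87.8 CPM at 3M (SE) and at 55.6, 65.3, 66.6, 69.6 and 69.9 CPM at 24M. Every 24M sample was below every 3M sample, a separation in that direction that 3.42% of all genes showed (6.57% in either direction). The means were 83.8 ± 4.3 and 65.4 ± 5.8 CPM (SD, n = 5 and 5), so that Grik3 was at 0.779 of its young level (log2 fold change -0.36, SE 0.065, adjusted p = 0.012 by edgeR), short of the fold threshold. Leaving out each library in turn gave log2 fold changes from -0.39 to -0.31, with adjusted p from 0.0038 to 0.035. In the PE libraries Grik3 was at 77.8, 85.1 and 87.6 CPM at 3M and at 71.5, 71.7 and 82.2 CPM at 29M. There 2 of the 3 aged samples lay below the young range and the third within it (log2 fold change -0.15, SE 0.063, adjusted p = 0.24 by edgeR).

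Markers listed for neocortex moved with Grik3 in the SE libraries. The summed level of 4 neocortex markers (Rorb, Cux2, Fezf2 and Lamp5, none of them at 0 in any group) was 152.5 to 218 CPM at 3M and 124.3 to 133 CPM at 24M. Of the 4 genes 2 were called lower at 24M, where 0.638% of all genes were. In the PE libraries the same sum was 121.9 to 138 CPM at 3M and 121.8 to 132.8 CPM at 29M, and none of the 4 was called. Of the 6 striatal markers 1 was called lower at 29M (0.113% of all genes were). Their sums overlapped there (125.3 to 142.4 CPM against 115.2 to 145.1). Without 3M SE replicate 4, which had the highest sums of neocortex and striatal markers, the log2 fold change of Grik3 at 24M was -0.34 (adjusted p = 0.026 by edgeR). The sums of neocortex markers in the remaining 3M SE samples, 152.5 to 179.5 CPM, still all lay above those at 24M. Whether these markers came from outside the hippocampus, and the part of such tissue in this result, was not tested.

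Within the hippocampus, markers of CA1 and of microglia moved as well, those of CA1 with sums that overlapped at both ages. The summed level of 4 markers of CA1 was 409.4 to 438.7 CPM at 24M against 415.9 to 546.6 at 3M (SE). Their median log2 fold change was -0.20, and 1 of the 4 was called lower (0.638% of all genes were). At 29M that sum was 375 to 421.5 CPM against 400.6 to 454.4, and 1 of the 4 passed the adjusted p as lower (0.662% of all genes did). The 4 microglial markers summed to 262.9 to 280.6 CPM at 24M against 218.9 to 245.8, and to 264.1 to 271.6 CPM at 29M against 213.5 to 217.3, entirely higher at both ages. In the other neuronal lists the median log2 fold change at 24M was -0.02 (neuron), -0.04 (CA3), 0.07 (dentate granule) and -0.02 (interneuron). At 29M these medians were -0.04, -0.0056, -0.0027 and -0.04. No gene of these lists was called, and 1 interneuron marker passed the adjusted p as lower at 24M (2.37% of all genes did). None of the markers was at 0 in any group, and their part in the levels of Grik3 and of the genes described below was not tested.

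**Figure D2:**
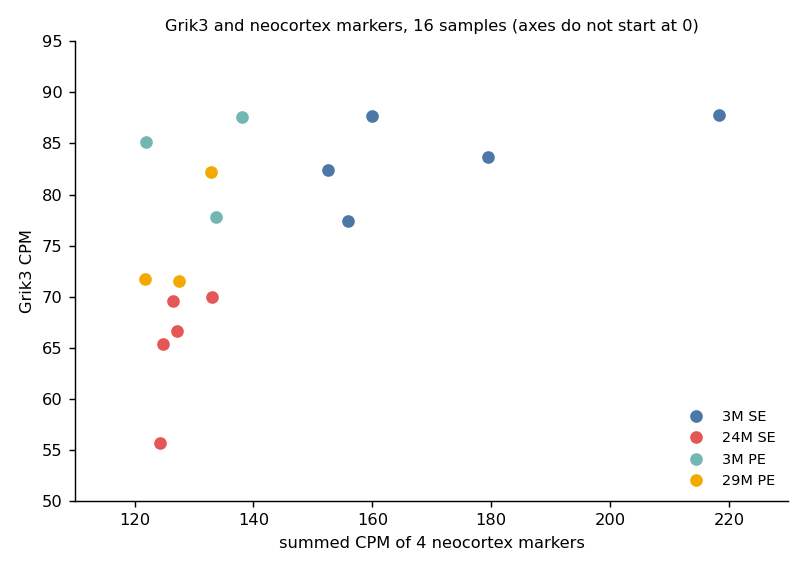
Grik3 in CPM (vertical axis) against the summed CPM of 4 neocortex markers (horizontal axis) in 16 samples, colored by group; neither axis starts at 0. The 24M samples sit at 55.6 to 69.9 Grik3 CPM with marker sums of 124.3 to 133, and the 3M SE samples at 77.4 to 87.8 with sums of 152.5 to 218, while the PE samples of both ages share the lower range of sums.

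Grik1, the least abundant member, was at 11.8, 13.5, 14.3, 14.6 and 16.5 CPM at 3M (SE) and at 10.6, 11.03, 11.8, 12.8 and 13.0 CPM at 24M (log2 fold change -0.27, SE 0.097, adjusted p = 0.11 by edgeR). The ranges overlapped through 3M replicate 5, whose Grik1 level of 11.8 CPM lay within the 24M range. Without that replicate Grik1 passed at a log2 fold change of -0.33 (adjusted p = 0.029 by edgeR), as did Grik5 at -0.18 (adjusted p = 0.042), which raised the members past adjusted p from 1 to 3. At 29M Grik1 was at 11.3 to 12.9 CPM against 12.8 to 13.7 CPM (log2 fold change -0.14, SE 0.094). Grik2, the most widely expressed channel-forming kainate subunit, was at 64.8 to 75.0 CPM at 3M (SE) and 70.9 to 90.5 CPM at 24M (log2 fold change 0.14, SE 0.070), and at 67.5 to 74.0 against 64.3 to 75.8 CPM in the 29M comparison (-0.02, SE 0.065). Neither difference passed.

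The high-affinity subunits Grik4, concentrated in CA3 and dentate gyrus, and Grik5, present in most principal neurons, also did not pass. Grik4 was at 48.2, 51.9, 57.7, 61.6 and 66.2 CPM at 3M (SE) and at 59.4, 60.4, 61.0, 65.6 and 71.0 CPM at 24M (log2 fold change 0.15, SE 0.084, adjusted p = 0.27 by edgeR), and at 29M its log2 fold change was 0.09 (SE 0.059). Grik5 was at 235.7 to 290.4 CPM (median 266.7) at 3M (SE) and 225.4 to 259.7 CPM (median 239) at 24M, a log2 fold change of -0.13 (SE 0.059, adjusted p = 0.18 by edgeR). At 29M its direction was the opposite, with 223.4, 232.4 and 237 CPM at 3M (PE) and 243.6, 248.9 and 250.2 CPM at 29M (log2 fold change 0.10, SE 0.035, adjusted p = 0.16 by edgeR). All 3 aged samples lay above all young ones in that comparison.

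The difference between the 29M and the 24M effects was tested in a fit of all 4 groups. It was largest relative to its error for Grik5, whose effect at 29M exceeded that at 24M by 0.23 on the log2 scale (SE 0.084, unadjusted p = 0.014, adjusted p = 0.39 by edgeR). Gria2 had a difference of -0.29 (SE 0.14, adjusted p = 0.48) and Grik3 one of 0.21 (SE 0.10, adjusted p = 0.49). None of the 9 members passed and none of 16055 genes did, with 10.4% of genes at an unadjusted p under 0.05, and DESeq2 called no member either. The smaller Grik3 difference at 29M was therefore not shown to differ from that at 24M.

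The 3 members with the lowest GC content, which also had the longest exons, had log2 fold changes above 0 at 24M. Exonic GC content, that of the longest annotated transcript, was 36.8% for Gria2, 37.9% for Grik2 and 39.8% for Gria3. Their exons covered 15548, 13246 and 9859 bases, so GC content and length cannot be told apart for them. Their log2 fold changes were 0.25, 0.14 and 0.07, while Grik3 (54.2%) and Grik5 (61.7%) were at -0.36 and -0.13. The order by GC content was not regular among the others. Grik4 (52.2%) was at 0.15, Gria1 (48.5%) at -0.02, Grik1 (47.85%) at -0.27 and Gria4 (44.3%) at 0.01. With loess offsets for GC content and length fitted in each library, Gria2 moved to -0.02 (adjusted p = 0.89), Grik2 to -0.11, Gria3 to -0.12 and Gria4 to -0.07, all reversed in sign, and Grik5 to -0.01. Grik3 stayed lower, at -0.30 (adjusted p = 0.013 by edgeR), and Grik1 at -0.29 (adjusted p = 0.12). At 29M these offsets reversed no member, and Grik5 moved from 0.10 to 0.03 and Grik4 from 0.09 to 0.05. The offsets were fitted without regard to age, so an age difference that follows GC content or length would be taken out too. Why the values moved was not tested.

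**Figure D3:**
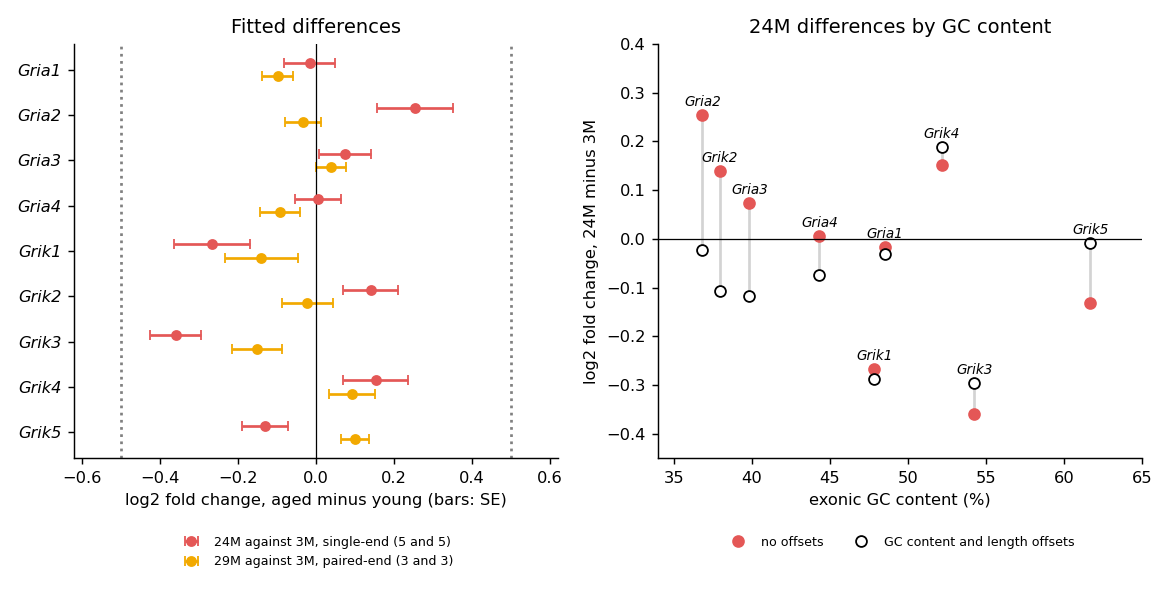
Left: log2 fold change (aged minus young, bars SE) of the 9 genes at 24M (single-end) and 29M (paired-end), with the threshold of 0.5 dotted; none reaches it. Right: the 24M log2 fold changes against exonic GC content (% of the longest annotated transcript), without (filled) and with (open) offsets for GC content and length. Gria2 falls from 0.25 to -0.02 and Grik3 moves from -0.36 to -0.30.

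One aged library carried much of the spread. 24M replicate 3 had the highest levels of Gria1 (1416 CPM), Gria2 (1171), Gria3 (323), Grik2 (90.5) and Grik4 (71.0) and the lowest of Grik1 (10.6) and Grik3 (55.6) among the 24M samples. It also had the highest share of reads without a feature among the SE libraries, 12.7%, against 9.79% to 10.4% in the other 24M libraries. The part of this in the levels was not tested. Without it, the log2 fold change of Grik3 was -0.31 and passed (adjusted p = 0.012 by edgeR), while Grik2 moved from 0.14 to 0.06, Gria3 from 0.07 to 0.01 and Grik4 from 0.15 to 0.10. Over all 16 samples, after the mean of each group was subtracted, log2 CPM of Gria2 and Gria3 varied together (Pearson r = 0.83), as did Gria1 and Grik4 (r = 0.78) and Gria2 and Grik2 (r = 0.71). Gria2 and Grik3 varied in opposite directions (r = -0.76). These correlations are descriptive, and samples of a group share its library type.

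Subunit shares were taken per kb of exon within each family. At 3M (SE) Gria1 made up 70.5 ± 1.9% of the summed Gria level, Gria2 16.5 ± 1.0%, Gria3 8.89 ± 0.85% and Gria4 4.07 ± 0.49% (SD, n = 5). By coding length, where the long untranslated exons of Gria2 do not enter, the shares were 53.2 ± 2.1% for Gria1 and 32.4 ± 1.4% for Gria2, so the proportion of these subunits is fixed only within a length basis. In the Grik family Grik5 made up 66.2 ± 0.8% at 3M (SE), Grik4 12.3 ± 0.9%, Grik3 12.1 ± 0.8%, Grik2 6.74 ± 0.51% and Grik1 2.70 ± 0.19%. The kainate subunits together were 20.3 ± 1.3% of the level of all 9 members at 3M (SE) and 18.8 ± 1.4% at 24M, and 19.2 ± 0.2% at 3M (PE) and 20.7 ± 0.8% at 29M.

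The Gria2 share was 15.6, 15.8, 16.6, 16.6 and 18.1% at 3M (SE) and 17.1, 17.4, 19.5, 20.1 and 21.2% at 24M. The mean was 2.52 points higher at 24M, with 3 of 5 aged samples above all young ones (two-sided exact permutation test, p = 0.040, 252 arrangements, smallest possible p = 0.0079, p = 0.079 after Benjamini-Hochberg adjustment over the 2 ages). By coding length the share was 33.3 to 39.4% at 24M against 31.15 to 34.8% at 3M, 3.79 points higher (exact permutation p = 0.040). With the 24M pair kept apart, which counts the 2 alike libraries separately, the exact permutation p was 0.024. Without any one of 3M replicates 1 to 4 or 24M replicates 2 or 3 the difference was 1.98 to 2.54 points and the exact p was 0.063 to 0.079. With counts first divided by the offsets for GC content and length, an alternative chosen after seeing the data, the difference was 0.187 points (exact permutation p = 0.70). At 29M the share was 18.1, 19.0 and 19.2% against 17.9, 17.9 and 18.9% at 3M (PE), 0.523 points higher (exact permutation p = 0.20, where 3 against 3 cannot go below 0.10). A higher Gria2 share was thus not established at either age.

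The other shares are parts of the same sums and are described without a test. At 24M the Grik4 share was higher without overlap, 13.8 to 16.4% against 10.9 to 13.5% at 3M (SE). The Grik3 share was 8.52 to 11.3% against 11.1 to 13.1%, overlapping by exon length, and entirely lower by coding length (12.9 to 17.01% against 17.1 to 20.1%). The Grik2 share had a mean of 7.94% at 24M against 6.74%. At 29M the Grik3 share by exon length was entirely lower (10.8 to 12.1% against 12.3 to 13.4%), as was the Grik1 share (2.27 to 2.54% against 2.70 to 2.88%), and the Gria3 share was entirely higher (9.13 to 9.33% against 8.35 to 8.69%). The Grik5 share at 29M overlapped by exon length and was entirely higher by coding length (50.4 to 51.6% against 46.9 to 49.8%). The Grik4 share did not separate at 29M (14.1 to 15.1% against 13.7 to 14.6%). For scale, the levels of 6.57% of all genes at 24M and 22.4% at 29M did not overlap, in either direction. These rates are for levels and not for shares, and with 3 samples against 3 separation was common.

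**Figure D4:**
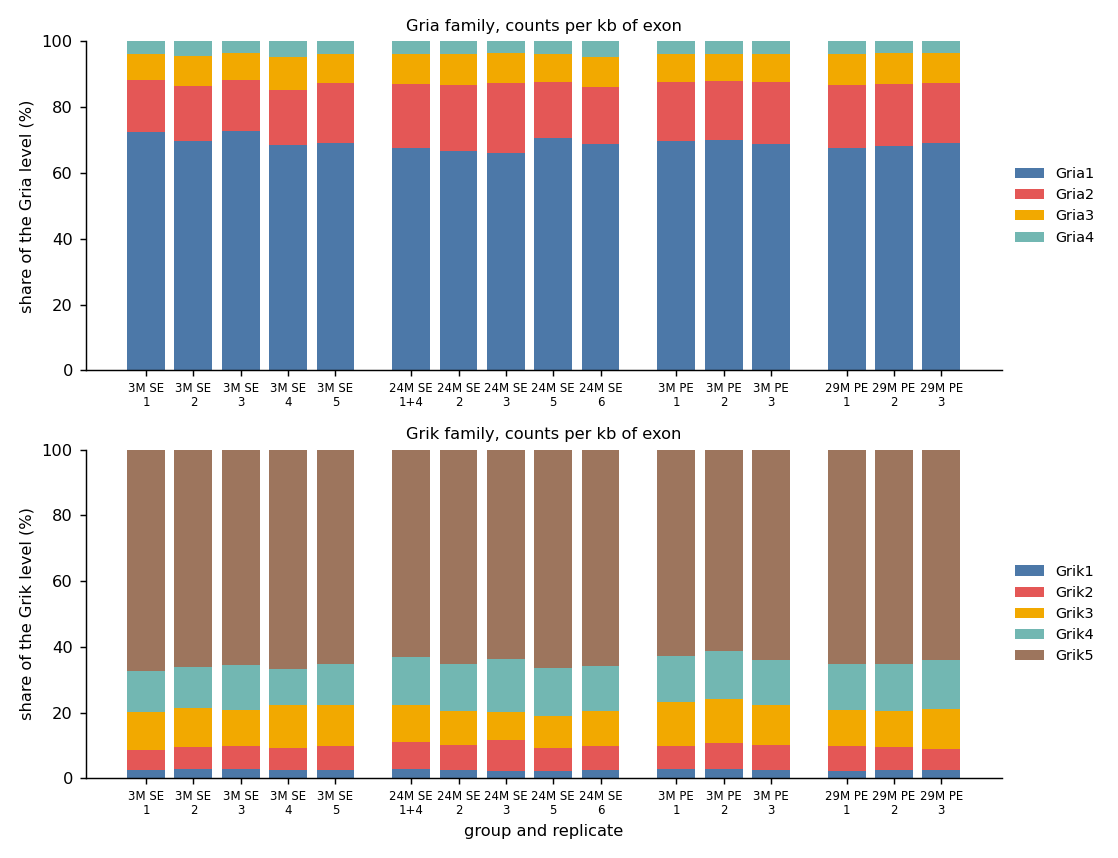
Share (%) of each subunit in the summed level of its family, counts per kb of exon, for each of 16 samples (24M replicates 1 and 4 as 1 sample). Gria1 takes 66.05 to 72.7% of the Gria level and Grik5 61.2 to 67.3% of the Grik level in every sample, and the Gria2 share reaches 21.2% in 24M replicate 3.

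Genes whose products associate with these receptors were counted from lists arranged by role, 37 genes in all, each of them tested at both ages. At 24M, 6 of 37 passed the adjusted p without a fold threshold, 5 lower and 1 higher (2.37% and 3.21% of all genes passed in those directions), and 1 was called lower (Nptx2, where 0.638% of all genes were). At 29M none of the 37 passed (2.32% of all genes passed as higher and 0.662% as lower) and none was called. The count of 6 rested on single libraries: it was 10 without 3M SE replicate 5, 3 without 24M replicate 1 or 5, 2 without 3M SE replicate 1, 2 or 4 or 24M replicate 3, and 1 without 24M replicate 2. It was also 3 with offsets for GC content and length, 2 without both 24M replicates 1 and 4, and 10 with all 4 groups in 1 fit. The median log2 fold change of the lists was -0.09 at 24M, with 28 of 37 below 0, and -0.02 at 29M, with 22 below 0.

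Of the 14 AMPA auxiliary subunits, 13 were below 0 at 24M and 3 passed, and their median log2 fold change was -0.18. These 3 were TARP genes, whose products bind AMPA receptors and govern their trafficking and gating. Cacng3 was at 63.0 ± 1.4 CPM at 24M against 75.7 ± 4.1 at 3M (log2 fold change -0.27, SE 0.049, adjusted p = 0.012 by edgeR) and passed without each library in turn. Cacng4 differed by -0.37 (adjusted p = 0.040) and Cacng7 by -0.20 (adjusted p = 0.049), and they failed in 8 and 7 of the 11 fits that left out 1 library. Without 3M SE replicate 4 they were at -0.29 (adjusted p = 0.068 by edgeR) and -0.18 (adjusted p = 0.095). With the offsets for GC content and length Cacng7 no longer passed (-0.12, adjusted p = 0.19 by edgeR). Cacng3 (-0.22, adjusted p = 0.0086) and Cacng4 (-0.32, adjusted p = 0.045) passed with these offsets. Cacng8, the main TARP of hippocampal neurons, was at 134 ± 5.1 CPM at 24M against 144 ± 17.9 (log2 fold change -0.11, adjusted p = 0.38). Cnih2, a cornichon that slows AMPA receptor closing, was at 377 ± 14.4 against 433 ± 35.2 CPM (-0.20, adjusted p = 0.053). At 29M the median of the 14 genes was -0.03, with Cacng3 at 0.0037, Cacng8 at 0.09 and Cnih2 at -0.03.

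Nptx2 encodes a secreted pentraxin that clusters AMPA receptors, and it is induced by activity. It was at 26.5 ± 3.1 CPM at 24M against 37.7 ± 5.4 at 3M (SD, n = 5 and 5), a log2 fold change of -0.50 (SE 0.10, adjusted p = 0.018 by edgeR) without overlap. Without 24M replicate 2 it did not pass (-0.45, adjusted p = 0.059). Without 3M SE replicate 4 it was -0.43, without 3M replicate 2 it was -0.49 and without 24M replicate 6 it was -0.47, each short of the fold threshold, and at 29M it was -0.05. With the offsets it was -0.42 (adjusted p = 0.049).

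Of the kainate receptor partners, Neto1, an auxiliary subunit that slows kainate receptor kinetics, was the sole listed gene that passed as higher at 24M, at 134 ± 10.3 CPM against 107 ± 11.8 (log2 fold change 0.32, SE 0.075, adjusted p = 0.031 by edgeR). It no longer passed in 6 of 11 fits without 1 library, nor with the offsets for GC content and length (0.11, adjusted p = 0.56). Without 3M SE replicate 4 it was 0.27 (adjusted p = 0.056 by edgeR). At 29M it differed by 0.08. Its relative Neto2 was at 62.4 ± 6.8 against 59.3 ± 10.8 CPM at 24M (0.08, adjusted p = 0.70), and at 48.3 ± 1.4 against 55.7 ± 1.9 CPM at 29M, where the groups did not overlap (-0.21, adjusted p = 0.070).

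The editing enzymes showed no call. Adarb1, whose product edits the Q/R site shown above, was at 205 ± 8.5 CPM at 24M against 218 ± 5.3 at 3M (log2 fold change -0.09, SE 0.042, adjusted p = 0.18 by edgeR), and at 200.3 ± 10.6 against 203.7 ± 6.3 CPM at 29M (-0.02, adjusted p = 0.82). Adar, the more widely expressed enzyme, passed at 24M without the fold threshold (-0.20, SE 0.053, adjusted p = 0.045) and failed in 9 of the 11 fits that left out 1 library. Without 3M SE replicate 4 it was -0.20 (adjusted p = 0.070 by edgeR). Nor did Adar pass with the offsets for GC content and length (-0.14, adjusted p = 0.11 by edgeR). At 29M it differed by -0.01. Adarb2, the third listed enzyme, was at 35.9 ± 2.7 CPM at 24M against 32.9 ± 5.1 (0.13, adjusted p = 0.44 by edgeR). At 29M it was entirely higher, as 11.9% of all genes were, at 40.1 ± 3.6 against 34.6 ± 1.3 CPM (0.21, adjusted p = 0.15 by edgeR). The neocortex markers given above moved in the SE samples, and their part in the differences at 24M was not tested.

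**Figure D5:**
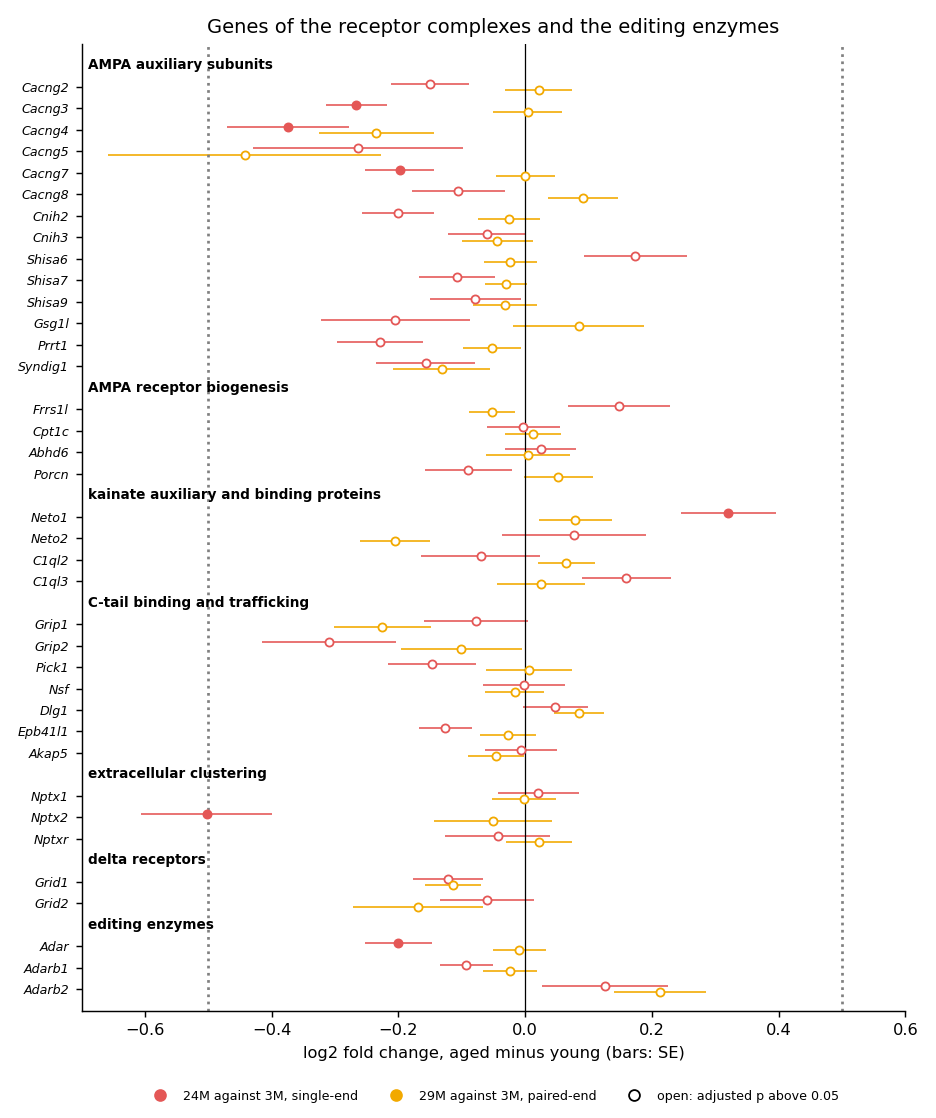
Log2 fold change (aged minus young, bars SE) of 37 genes of the receptor complexes and editing enzymes, by list, at 24M (red) and 29M (yellow); filled points passed an adjusted p of 0.05 and dotted lines mark 0.5. At 24M, 28 of 37 lie below 0 and only Nptx2 reaches the line (-0.50), and at 29M none is filled.

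The genes most like the most abundant member of each family were sought over the 16 samples, by Pearson r of log2 CPM after subtraction of the group mean, among 11845 genes. For Gria1 these were Slc44a5 (r = 0.94), Robo1 (0.93), Slc9a4 (0.93), St6galnac5 (0.93) and Fry (0.93). Within the SE samples r was 0.94 to 0.98, and among the 6 PE samples it was 0.089 to 0.59. For Grik5 they were Urgcp (0.93), Agap3 (0.92), Insyn1 (0.92), Stub1 (0.92) and Dnm1 (0.92), with r of 0.61 to 0.96 among the PE samples. None of these 10 genes had an absolute log2 fold change above 0.42 at 24M (Slc9a4) or 0.15 at 29M (Robo1).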

How the data were processed

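Counts per gene were deposited by the authors without normalization. They aligned reads with STAR 2.3.0 to GRCm38.p2 and counted them with HTSeq in its intersection-nonempty mode. The annotation used for counting and the strand setting are not given in the sources used here. Of 38355 identifiers, 36602 matched GENCODE M21, which gave names, exon lengths and GC content. Lines that name no gene stayed out of library sizes. Reads without a feature were 8.59% to 15.87% of a library.

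The tests used edgeR 4.0.16 in R 4.3.3 (TMM scaling, the filter at its defaults, quasi-likelihood F test), separately per library type, with Benjamini-Hochberg adjustment over all genes tested. CPM are TMM-scaled. Standard errors were obtained from the size of the log2 fold change and its F statistic. The members, lists and tests were chosen with earlier results of these data known. P-values measure the spread between the samples as labelled. The steps were tested on simulated data.

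Named were all members, listed genes called or with the largest changes past adjusted p (3 per direction and comparison), 5 listed genes fixed by name (Adarb1, Neto1, Neto2, Cacng8 and Cnih2) and, for the most abundant Gria and Grik, the 5 genes most like it. The most-alike search took genes with at least 5 CPM. Cacng7, Adar and Adarb2 fall outside that rule and were named after their values were seen.

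Alternatives were DESeq2 1.42.0 and its size factors, no filter or 1 CPM, all groups in 1 fit, the replicate number as a block, loess offsets (span 0.3) for GC content and length, thinned libraries, the 24M pair kept apart or left out, and each library left out. Editing and splicing were not analysed here.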

Additional observations from a re-analysis of the deposited data

Results flagged for a closer look

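In groups of 5 samples, a sample was singled out where its gap to the nearest other sample exceeded 0.71 of the group's range. Over 60 groups tested (the members, their shares and the marker sums), 3 were singled out, and chance gives about 1 in 20. Gria3 in 3M SE replicate 1 was at 238.3 CPM, below 271.9 to 275.5 CPM in the other 3M SE samples. Grik2 in 24M replicate 3 was at 90.46 CPM, above 70.86 to 75.77 CPM in the other 24M samples. The striatal marker sum in 3M SE replicate 4 was 395.2 CPM, above 93.7 to 164 CPM.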

How the results depend on the processing

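No alternative gave a called member at 24M or 29M, a member past adjusted p at 29M, or a member whose 2 effects differed. At 24M the members past adjusted p went from 1 to 2 with all 4 groups in 1 fit (Grik1 added, adjusted p = 0.048), and to 1 to 3 without 1 library each. With the replicate block none passed: Grik3 was -0.37 (adjusted p = 0.080), and with the block and the offsets for GC content and length none passed either (-0.30, adjusted p = 0.068). Same-numbered samples did not deviate together (r from -0.14 to 0.054 at 24M and -0.07 to 0.097 at 29M). Of the numbers, 1 of 4 and 1 of 3 correlated best with their own, so no pairing by number was seen. With so few numbers this check cannot exclude pairing. The receptor complex genes called at 24M went from 1 to 0 with the block, the offsets, both together, thinned libraries and the 24M pair kept apart, and to 0 to 1 without 1 library each. Those past adjusted p went from 6 to 0 with the block, with and without the offsets, 3 with the offsets alone, 2 without the 24M pair and 10 with all 4 groups in 1 fit, and at 29M from 0 to 1 without a filter. The Gria2 share difference at 24M was 0.187 points with the offsets, 3.79 by coding length and 1.98 to 3.02 points without 1 library each (main 2.52). The Grik2 share difference was 2.42 points from counts and 2.45 by coding length (main 1.20), and that of Grik3 -3.10 by coding length (main -1.97).

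Signs that reversed were those of differences that passed no test. At 24M the offsets gave -0.0224 for Gria2, -0.12 for Gria3, -0.0737 for Gria4 and -0.11 for Grik2. The block with offsets gave -0.0016, -0.0815, -0.10 and -0.12 for the same genes, and Gria4 was -6e-04 without a filter and -0.0107 with the replicate block. Without 1 library each, log2 fold changes ranged from -0.0611 to 0.034 for Gria1 and -0.0328 to 0.0331 for Gria4 at 24M, and from -0.0631 to 0.0062 for Gria2 and -0.0935 to 0.0291 for Grik2 at 29M. The cause was not tested. With 3 samples per group at 29M, the Grik1 difference (-0.14, SE 0.094) kept its sign in every alternative but did not pass (adjusted p = 0.48 by edgeR).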
